A study of Mus musculus with 3 samples.

Results

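Sialic acids are acidic sugars that cells place at the ends of the glycan chains of glycoproteins and glycolipids. The genes described here are 30 listed members that make, transfer or remove them, out of 32285 features counted. The list was taken as given, by gene symbol, and its rule uses no measured value. It holds 20 sialyltransferases, 6 genes of synthesis and transport and 4 sialidases. For each member the raw UMIs (unique molecular identifiers, 1 per captured RNA molecule) of annotated cells were summed by sample, by class and by the authors' subcluster.

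The study profiled single follicular T cells of mouse spleen, sorted by flow cytometry, by 10x Chromium 3′ RNA-seq. The class of each cell is the one the authors deposited: Tfh (follicular helpers, which drive germinal centre B cells) or Tfr (their regulatory counterparts). All mice had been immunised with OVA-liposome, and organs were taken on day 14. The groups are WT, with 2 samples, and Siglec-G B cell knockout (BKO), with 1. WT replicate 1 and BKO are labelled batch 1 and WT replicate 2 batch 2. Siglec-G restrains B cells on contact with sialylated glycans, so in BKO the deletion lies in cells that read these sugars, whereas the RNA measured here comes from T cells that can carry them. The labels do not name the driver of the deletion, the age or strain of the mice or the number pooled. Siglecg was at 0.214 and 0.134 CPM (UMIs scaled to 1000000 UMIs of the class) in Tfh cells of the WT replicates and at 0 in BKO, where 3 counts allow up to 0.0686. In Tfr cells it was at 0 in both WT replicates and at 0.0655 CPM in BKO. Such levels in T cells check nothing about a deletion in B cells.

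The WT replicates hold the same cells: all 5554 barcodes of replicate 1 recur in replicate 2, with a correlation of their UMI totals of 0.997, and 5192 distinct WT barcodes are annotated. They are therefore called WT run 1 and WT run 2, count as 1 library, and their closeness says nothing about the spread between mice. BKO shared 13 annotated barcodes with WT run 2. The runs share 5068 annotated cells, and 527 of them (10.4%) carry another class in the second table. Throughout, values in threes are in the order WT run 1, WT run 2, BKO. Tfh cells numbered 3727, 3668 and 6389, and Tfr cells 1416, 1449 and 2044, with median depths from 4413 to 8407 UMIs per cell. Summed UMIs ran from 8309616 (Tfr, WT run 1) to 43702235 (Tfh, BKO). The T cell markers Cd3d, Cd3e, Cd3g, Cd4 and Trac together reached 4090 to 5262 CPM in every class and sample. The Tfr markers Foxp3, Il2ra, Ikzf2 and Ctla4 summed to 3980 to 4069 CPM in Tfr and 1561 to 1779 CPM in Tfh cells. Foxp3 alone was at 0.801, 16.5 and 1.33 CPM in Tfh and 356, 331 and 349 CPM in Tfr cells. B cell markers summed to 385, 397 and 438 CPM in Tfh and 647, 672 and 1029 CPM in Tfr cells in WT run 1, WT run 2 and BKO, nearly all of it Ighm. Their part in the results was not tested.

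Sialic acid is built in the cytosol from UDP-GlcNAc, activated to CMP-sialic acid in the nucleus and carried into the Golgi, where sialyltransferases attach it to galactose, GalNAc or another sialic acid. Siglecs on neighbouring cells read the linkage and the form of the sugar, Neu5Ac or its hydroxylated form Neu5Gc. Lymphocytes remodel these glycans upon activation: germinal centre B cells of mice lower Cmah and with it Neu5Gc, and T cells alter the sialylation of core O-glycans. Sialidases remove the sugar again in lysosomes and at the plasma membrane.

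Much of the description below concerns St3gal6 and St8sia1, lower in Tfr cells, and St6galnac3 and St8sia6, higher in Tfr cells. Their promoters are shown so that these pairs can be compared, from 250 bases before to 50 bases after the start of transcription, 5′ to 3′ on the gene's strand, from RefSeq on GRCm38.p6. All 4 genes lie on the minus strand. Capitals mark the GC box, GGGCGG or CCGCCC, and the E-box CAGCTG.
St3gal6 at chr16:58523377-58523676: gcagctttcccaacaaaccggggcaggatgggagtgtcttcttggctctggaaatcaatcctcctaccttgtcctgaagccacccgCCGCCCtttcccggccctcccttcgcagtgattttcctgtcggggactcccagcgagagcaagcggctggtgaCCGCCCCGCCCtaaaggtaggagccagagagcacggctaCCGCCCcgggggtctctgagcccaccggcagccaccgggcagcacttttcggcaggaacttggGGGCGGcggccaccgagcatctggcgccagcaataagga
St8sia1 at chr6:142964403-142964702: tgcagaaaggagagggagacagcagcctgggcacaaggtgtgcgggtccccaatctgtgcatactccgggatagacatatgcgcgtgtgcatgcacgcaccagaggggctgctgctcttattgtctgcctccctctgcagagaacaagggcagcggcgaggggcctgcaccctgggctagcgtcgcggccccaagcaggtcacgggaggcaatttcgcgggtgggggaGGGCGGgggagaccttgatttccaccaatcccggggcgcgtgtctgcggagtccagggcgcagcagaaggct
St6galnac3 at chr3:153725084-153725383: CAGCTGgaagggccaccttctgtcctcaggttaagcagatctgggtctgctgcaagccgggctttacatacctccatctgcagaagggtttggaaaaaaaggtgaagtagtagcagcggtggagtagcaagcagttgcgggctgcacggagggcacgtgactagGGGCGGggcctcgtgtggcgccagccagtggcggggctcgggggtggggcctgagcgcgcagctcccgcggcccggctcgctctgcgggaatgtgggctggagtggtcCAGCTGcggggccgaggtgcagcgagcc
St8sia6 at chr2:13793471-13793770: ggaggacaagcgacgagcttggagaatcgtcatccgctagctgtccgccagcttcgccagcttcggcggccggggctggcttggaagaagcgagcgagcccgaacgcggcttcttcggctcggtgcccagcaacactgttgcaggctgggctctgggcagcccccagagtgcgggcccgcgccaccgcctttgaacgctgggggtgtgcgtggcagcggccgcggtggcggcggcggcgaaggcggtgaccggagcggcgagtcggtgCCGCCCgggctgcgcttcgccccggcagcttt
Each of the 4 windows is rich in G and C (64.7%, 64.7%, 66.0% and 72.0%) and holds a GC box. The St3gal6 window holds 5 matches, overlaps allowed, and each of the others 1. The E-box was found in the St6galnac3 window alone among these, with 2 matches. St3gal6 has another annotated start, at chr16:58524204-58524503, where the window is 38.7% G and C and no motif searched was found. Of 32851 promoters, 35.7% hold the GC box and 16.3% the E-box on either strand. The table has promoters for 21 of the 30 members, 28 in all, of which 16 hold the GC box and 8 the E-box. The forkhead core TAAACA was in 3 (13.4% of all promoters), the ETS core CCGGAA in 2 (14.9%) and TATAAA in 2 (13.6%), and none of these was in the windows above. A match says only that the letters are present.

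Of the 30 members, 27 had at least 1 UMI in annotated cells. St8sia2, which like St8sia4 builds polysialic acid, St8sia3, and Neu2, the cytosolic sialidase, had none, and the limit that a count of 0 allows was 0.0686 CPM in BKO Tfh cells, the deepest sum, and 0.361 CPM in WT run 1 Tfr cells, the shallowest. St8sia5 had 1 UMI, in BKO Tfh cells. When every barcode with at least 500 UMIs was counted, 28 members were detected, since Neu2 had 1 UMI there. Neu4 had 33 UMIs over the 3 samples, St6gal2 68, St6galnac2 120 and St6galnac1 160. St6gal2 was at 0.240 to 0.694 CPM in all classes and samples, under its 3.56 CPM in BKO barcodes of 1 to 50 UMIs, a value that rests on 6 UMIs. Such barcodes hold free RNA and are deposited for BKO only. St6galnac2 is listed under a second ID, ENSMUSG00000110170, which overlaps it and had 3 UMIs, so its count is uncertain.

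The other 22 members had from 803 UMIs (St6galnac5) to 49204 UMIs (St6gal1) in all. The plot of levels by sample and class shows them. A 3′ count is not scaled by gene length, so levels are compared between samples and classes, not between genes.

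**Figure D1:**
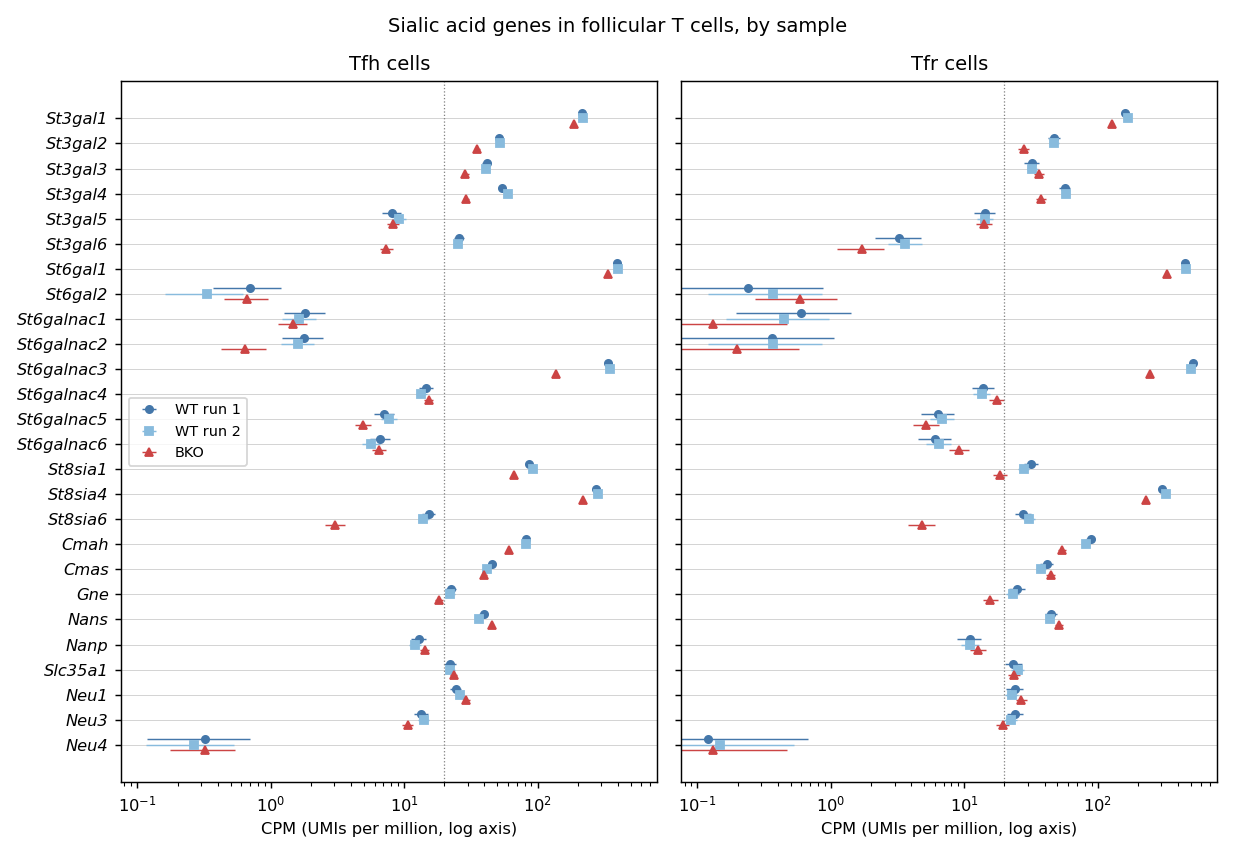
Level of the 26 members with at least 30 UMIs, as CPM of summed UMIs on a log axis, in Tfh (left) and Tfr cells (right). Points are samples, lines are exact Poisson 95% intervals, which cover counting error only, and the dotted line is 20 CPM. The WT runs, which hold the same cells, nearly coincide, and St3gal6, St6galnac3 and St8sia6 in BKO stand to the left of both.

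Tfr cells were first compared with Tfh cells, within each library. Of 25 members that passed the filter on low counts, 4 rose and 6 fell in Tfr against Tfh cells. Higher in Tfr were St3gal5, St6galnac3, St8sia6 and Neu3. Lower were St3gal1, St3gal2, St3gal6, St6galnac1, St6galnac2 and St8sia1. Over all 13856 genes tested, 11.6% were higher and 9.87% lower. The median log2 change of the members was 0.01. The test was edgeR's quasi-likelihood test with the library as a block and Benjamini-Hochberg adjustment over all genes. It rests on 2 libraries and 1 residual degree of freedom. DESeq2 called 3 of the 4 (St3gal5 missed) and 3 of the 6 (St3gal1, St3gal6 and St8sia1), against 4.89% and 3.72% of 13939 genes. Both classes of a library were counted by the same software.

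Among the 6 enzymes that attach sialic acid to galactose in the alpha-2,3 linkage, St3gal6 showed the widest gap between the classes. It acts on the N-acetyllactosamine ends that become sialyl Lewis x, a ligand of selectins. St3gal6 had 25.8, 25.1 and 7.37 CPM in Tfh cells, on 1659 UMIs in all. In Tfr cells it had 3.25, 3.62 and 1.70 CPM. Every Tfr value lay under every Tfh value, and the fall was 5.92-fold (log2 change -2.56, SE 0.19, edgeR adjusted p = 5.6e-05).

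St3gal1, the enzyme that caps core 1 O-glycans and is well known from CD8 T cells, was higher in Tfh cells (24244 UMIs in all). It had 215, 218 and 187 CPM in Tfh and 161, 168 and 127 CPM in Tfr cells. All Tfr values lay under all Tfh values (log2 change -0.48, SE 0.06, edgeR adjusted p = 7.0e-04). St3gal2 (5538 UMIs), which acts on the same core and on gangliosides, had 51.3, 52.7 and 35.4 CPM in Tfh and 47.1, 47.1 and 27.9 CPM in Tfr cells. The fall was small (log2 change -0.24, SE 0.07, edgeR adjusted p = 0.047), and BKO Tfh cells lay under both WT Tfr values. Leaving out either WT run took it over the threshold, to an edgeR adjusted p of 0.061 without run 1 and 0.0503 without run 2.

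St3gal5 makes GM3, the first ganglioside of the pathway, by adding sialic acid to lactosylceramide. Of 1316 UMIs in all, it had 8.11, 9.19 and 8.28 CPM in Tfh and 14.2, 14.3 and 14.1 CPM in Tfr cells. All Tfr values were above all Tfh values, by 1.66-fold (log2 change 0.73, SE 0.12, edgeR adjusted p = 0.0025). St3gal4 (5926 UMIs), a further enzyme of sialyl Lewis x synthesis, had 54.1, 60.3 and 29.2 CPM in Tfh and 56.6, 58.3 and 37.6 CPM in Tfr cells and did not pass (log2 change 0.18, SE 0.09, edgeR adjusted p = 0.21). St3gal3 (4534 UMIs), which acts on type 1 and type 2 chains, had 41.5, 41.4 and 28.7 CPM in Tfh and 32.0, 32.3 and 36.5 CPM in Tfr cells. Its Tfr level was the lower in both WT runs and the higher in BKO, with a fitted log2 change of 0.01 (SE 0.14, edgeR adjusted p = 0.97).

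St6gal1 adds alpha-2,6-linked sialic acid to N-glycans and so makes the ligands of CD22, which together with Siglec-G restrains B cell receptor signalling. With 394, 402 and 339 CPM in Tfh and 448, 458 and 330 CPM in Tfr cells it did not differ beyond the test's error (log2 change 0.07, SE 0.07, edgeR adjusted p = 0.53). The WT runs were higher in Tfr cells, and BKO was not.

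The St6galnac enzymes attach sialic acid to GalNAc of O-glycans and gangliosides. St6galnac3 was the member of this family with the most UMIs, 37698 in all. It had 340, 348 and 137 CPM in Tfh and 520, 504 and 248 CPM in Tfr cells. Tfr cells were higher in each sample, by 1.63-fold in the fit (log2 change 0.71, SE 0.07, edgeR adjusted p = 2.8e-04), although BKO Tfr cells lay under the WT Tfh cells. St6galnac1, which makes the sialyl-Tn antigen, rested on few UMIs: 34, 49 and 64 in Tfh and 5, 6 and 2 in Tfr cells. It fell in Tfr (log2 change -2.35, SE 0.48, edgeR adjusted p = 0.0093). St6galnac2 had 33, 48 and 28 UMIs in Tfh and 3, 5 and 3 in Tfr cells and fell likewise (log2 change -1.96, SE 0.46, edgeR adjusted p = 0.018). DESeq2 gave both an adjusted p over the threshold, 0.14 and 0.47. St6galnac4 (1908 UMIs), St6galnac5 (803) and St6galnac6 (855) did not pass, with log2 changes of 0.10, -0.04 and 0.30.

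The St8sia enzymes add sialic acid to sialic acid. St8sia1 makes the ganglioside GD3 from GM3. Over 8221 UMIs in all, it had 86.6, 92.9 and 66.3 CPM in Tfh and 31.5, 27.8 and 18.7 CPM in Tfr cells. Each Tfr value was under each Tfh value, and the fall was 3.31-fold (log2 change -1.73, SE 0.07, edgeR adjusted p = 3.8e-06). St3gal5, which makes its substrate, moved the other way, as given above.

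St8sia6 makes disialyl groups on O-glycans that serve as Siglec ligands in mice (1554 UMIs in all). It had 15.3, 13.9 and 3.04 CPM in Tfh and 27.7, 30.6 and 4.84 CPM in Tfr cells. Tfr was the higher class in each sample (1.87-fold, log2 change 0.90, SE 0.14, edgeR adjusted p = 0.0019), while both BKO values lay under all WT values. St8sia4 (33749 UMIs), the polysialyltransferase of lymphocytes, had 275, 285 and 221 CPM in Tfh and 304, 326 and 229 CPM in Tfr cells and did not pass (log2 change 0.12, SE 0.06, edgeR adjusted p = 0.21).

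None of the 6 genes of synthesis and transport was called between the classes by edgeR or DESeq2, and 1, Nans, had an unadjusted edgeR p under 0.05. Gne (2639 UMIs), the bifunctional enzyme that limits the rate of the pathway, had 22.4, 22.2 and 18.2 CPM in Tfh and 24.9, 23.1 and 15.6 CPM in Tfr cells. Nans (5566 UMIs), which condenses the sugar phosphate with phosphoenolpyruvate, had 39.4, 36.4 and 45.5 CPM in Tfh and 44.5, 43.6 and 51.7 CPM in Tfr cells. It was higher in Tfr in each sample and came close to the threshold (log2 change 0.20, SE 0.06, edgeR adjusted p = 0.054). Cmas (5373 UMIs), which activates sialic acid with CTP, had 45.4, 41.8 and 39.8 CPM in Tfh and 41.4, 37.6 and 44.4 CPM in Tfr cells. Cmah (9321 UMIs), the hydroxylase that turns Neu5Ac into Neu5Gc, had 82.3, 81.7 and 60.9 CPM in Tfh and 88.5, 82.5 and 53.7 CPM in Tfr cells. For Cmas and Cmah the ranges of the classes overlapped, and the fitted log2 changes were 0.01 and -0.07. Slc35a1 (3004 UMIs), the carrier of CMP-sialic acid into the Golgi, had 22.1, 22.2 and 23.6 CPM in Tfh and 23.3, 25.2 and 23.6 CPM in Tfr cells. Nanp, the phosphatase between Nans and Cmas, had 1663 UMIs in all and a log2 change of -0.17 (edgeR adjusted p = 0.33).

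Of the sialidases, Neu3 differed. It is the enzyme of the plasma membrane that prefers gangliosides. On 1936 UMIs in all, Neu3 had 13.4, 14.0 and 10.7 CPM in Tfh and 24.2, 22.4 and 19.4 CPM in Tfr cells. The classes did not overlap, and the rise was 1.75-fold (log2 change 0.81, SE 0.10, edgeR adjusted p = 6.0e-04). Neu1 (3434 UMIs), the lysosomal sialidase, had 24.4, 26.1 and 29.3 CPM in Tfh and 23.8, 22.7 and 26.8 CPM in Tfr cells. It did not pass (log2 change -0.13, SE 0.08, edgeR adjusted p = 0.28).

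**Figure D2:**
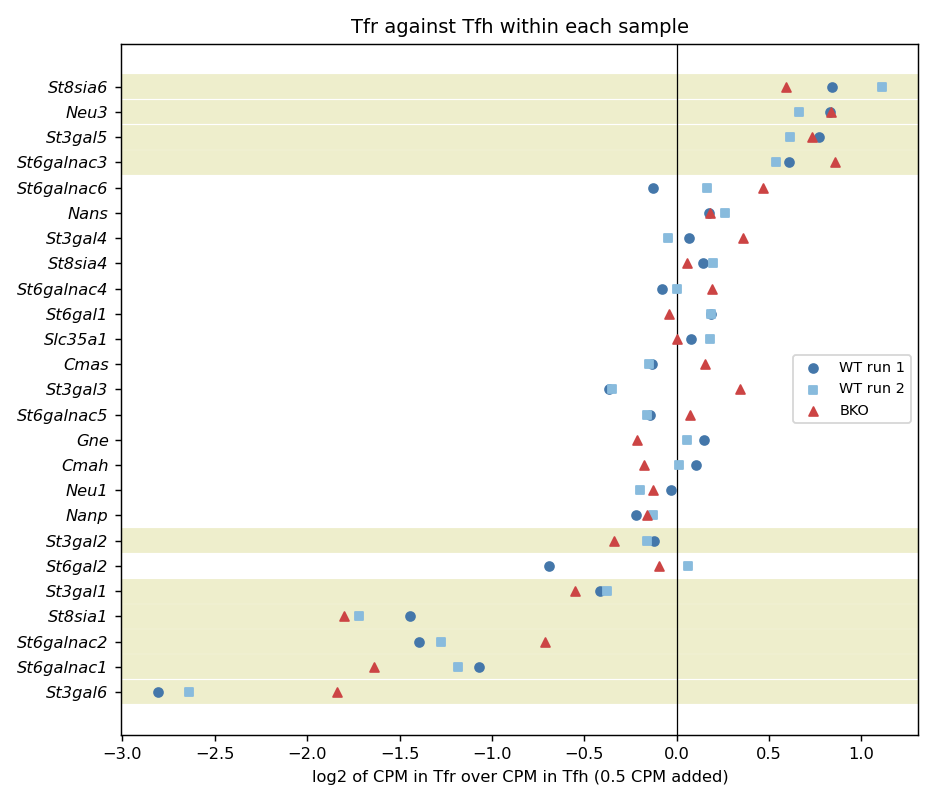
Log2 of the level in Tfr over that in Tfh cells of the same sample, after adding 0.5 CPM, for the 25 members tested. Circles, squares and triangles are WT run 1, WT run 2 and BKO, and shaded rows are the 10 members with an edgeR adjusted p under 0.05. St8sia1 and St3gal6 lie far to the left of 0 in every sample, and St3gal3 lies on different sides in WT and BKO.

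The classes are not pure in markers, and leaving out subclusters changed some sizes. Tfh subcluster 1 carried Tfr markers at 3764, 3849 and 3800 CPM summed, mostly Ikzf2, against 764, 777 and 929 CPM in Tfh subcluster 0. Without it the log2 change rose to 1.47 for St8sia6, 1.03 for St3gal5, 1.03 for Neu3 and 0.97 for St6galnac3. The 10 calls remained, joined by Nans (log2 change 0.22, edgeR adjusted p = 0.041), and no share over all genes is given for that setting. With cells of over 4000 genes put back, an alternative chosen after seeing the data, the fall of St3gal6 was -1.96 in log2. Those cells have no deposited class. They were counted as Tfr where any Foxp3 UMI was present and as Tfh otherwise, so this setting can mix the classes.

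Within the classes, levels were described by the authors' subclusters 0 to 4, each with at least 100 cells in every sample. Since the subclusters were made from these cells, no test is given. Counting a member once per class in which its mean reached 20 CPM, 17 of 30 such cases had the same highest subcluster in all 3 samples. The WT runs hold the same cells, so this count in effect sets WT against BKO. No share over all genes is given beside it, so the count says nothing particular to the members.

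Of the members with a mean of 20 CPM or more, St8sia1 had the widest range in Tfh cells. In subcluster 0 it had 186, 194 and 141 CPM. In subcluster 1 it had 25.9, 32.4 and 23.1 CPM, the lowest of the 5 in each sample. The ratio between these subclusters was 7.19, 6.01 and 6.09. Tfr subcluster 0 was likewise the highest for St8sia1, with 51.0, 44.5 and 55.6 CPM. There BKO was not below WT.

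St6galnac3 and St8sia6 ran the other way in Tfh cells. St6galnac3 had 534, 562 and 276 CPM in subcluster 1, its highest of the 5, and 107, 111 and 67.1 CPM in subcluster 2, its lowest. St8sia6 had 34.3, 32.8 and 7.65 CPM in subcluster 1 and 9.94, 9.07 and 2.92 CPM in subcluster 0. Subcluster 1 is the one with Tfr markers, and both members were also the higher ones in the Tfr class. In Tfr cells St8sia6 was highest in subcluster 0 in each sample (41.4, 44.1 and 11.8 CPM).

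St6gal1 was highest in subcluster 0 of both classes, at 539, 552 and 518 CPM in Tfh and 579, 595 and 592 CPM in Tfr cells. In these subclusters the 3 samples lay close together. St8sia4 was also highest there, with 380, 380 and 405 CPM in Tfh and 380, 414 and 376 CPM in Tfr cells. St3gal1 (329, 330 and 284 CPM) and St3gal2 (83.8, 81.5 and 59.6 CPM) had their highest level in Tfh subcluster 0, while Cmah had 127, 128 and 126 CPM in Tfh subcluster 4, its highest of the 5. Cmas had a ratio of highest to lowest Tfh subcluster of 1.24, 1.31 and 1.32, and Nans of 1.90, 1.60 and 1.31.

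Tfh subclusters 5 and 6 fell short of 100 cells in BKO and are described separately. They held 359, 363 and 11 cells and 181, 177 and 91 cells. St3gal6 had 113, 107 and 113 CPM in subcluster 5, the BKO value resting on 10 UMIs, and 105, 104 and 46.0 CPM in subcluster 6. Together they held 66.9%, 67.4% and 16.5% of the St3gal6 UMIs of Tfh cells. In subclusters 0 to 4 of WT, St3gal6 was at 2.48 to 23.0 CPM. St3gal4 was high in the same places, with 89.5, 110 and 113 CPM in subcluster 5 and 157, 158 and 151 CPM in subcluster 6.

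Subcluster 5 also had the lowest St6gal1 of the WT Tfh subclusters, 69.3 and 69.2 CPM, and low St8sia1, 7.88 and 8.11 CPM. Markers of CD8 T and NK cells summed to 2135, 1931 and 1129 CPM in it, nearly all of it Nkg7, against 28.6, 29.0 and 24.1 CPM in subcluster 0. Subcluster 6 had 428, 366 and 296 CPM of them. The markers were not limited to these subclusters. Tfh subcluster 8 had 512, 514 and 32.3 CPM, above subcluster 6 in the WT runs and under it in BKO. Tfh subcluster 7 had 202, 175 and 52.4 CPM. Tfr subcluster 6 had 1748 and 1351 CPM in WT run 1 and WT run 2. Over all Tfh cells these markers summed to 289, 270 and 49.0 CPM, and Cd8a was at 0 in WT run 1 and Ncr1 at 0 in WT run 1 and BKO. Their part in the levels of St3gal6 was not tested. With Tfh subclusters 5 and 6 and Tfr subcluster 6 left out, chosen after seeing the data, St3gal6 remained lower in Tfr cells (log2 change -2.09, edgeR adjusted p = 4.0e-06), and St3gal4 was called higher (log2 change 0.43, edgeR adjusted p = 3.1e-04).

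**Figure D3:**
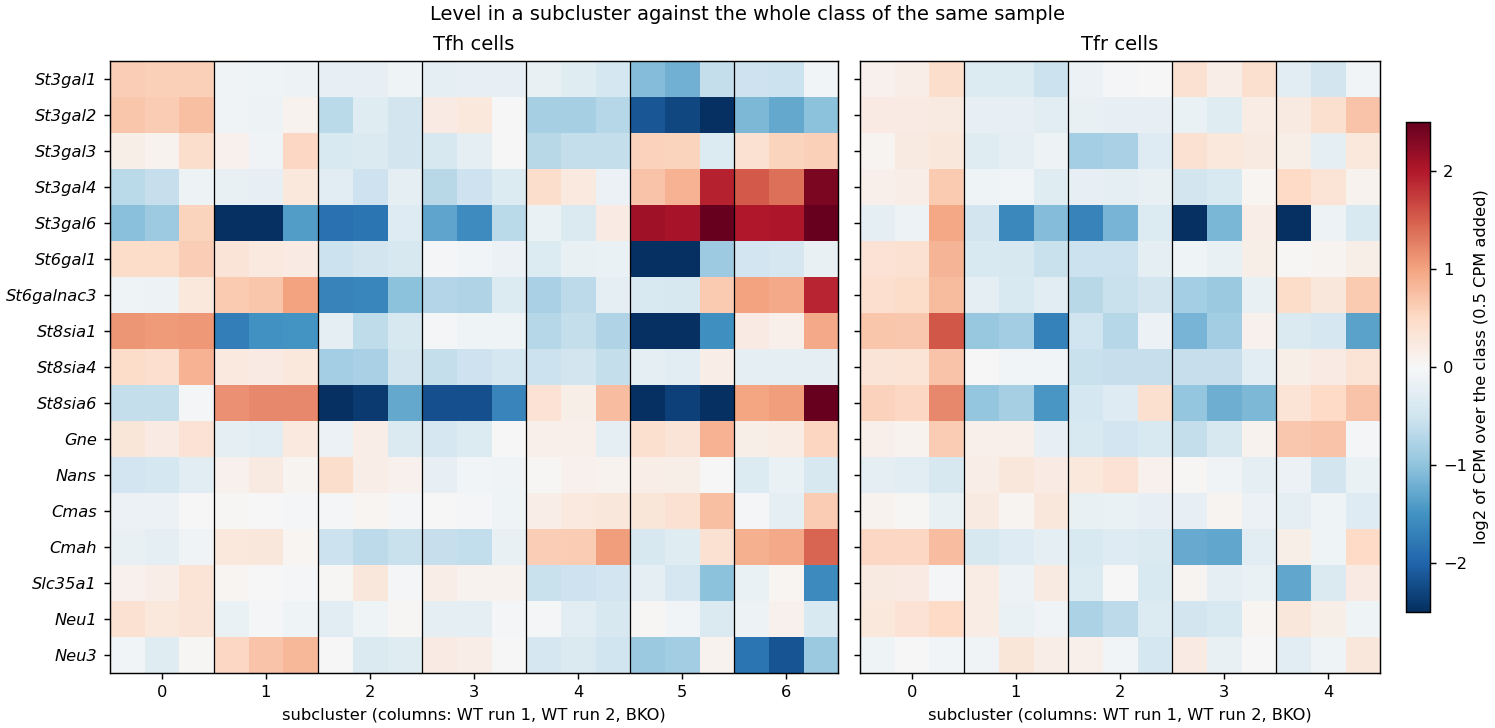
Log2 of the level of 17 members in a subcluster over their level in the whole class of the same sample, after adding 0.5 CPM, in Tfh subclusters 0 to 6 and Tfr subclusters 0 to 4. Each block has 3 columns, WT run 1, WT run 2 and BKO, red is higher and blue lower, and the colours stop at 2.5. St3gal4 and St3gal6 are red in Tfh subclusters 5 and 6, of which 5 has 11 cells in BKO, and St8sia1 is red in subcluster 0 of both classes.

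BKO was then compared with WT in each class, which asks whether the T cells of mice whose B cells lack Siglec-G differ in these genes. With 1 library per genotype there is no test. Instead, a rule of size was used: from a mean of 20 CPM in the 3 samples upward, a gene was called where BKO exceeded or undercut each WT run 1.5-fold or more, with 0.5 CPM added to every level. In Tfh cells 14 members reached that mean: 0 were higher in BKO, against 0.381% of 6559 genes, and 2 were lower, St3gal4 and St6galnac3, against 2.38%. In Tfr cells 16 reached it: 0 were higher, against 0.872% of 6539 genes, and 4 were lower, St3gal2, St6galnac3, St8sia6 and Cmah, against 2.26%. The median log2 ratio of BKO over WT was -0.31 for these members in Tfh cells and -0.46 in Tfr cells, against -0.10 and -0.09 over all genes. With the trend over intron length, described next, taken off, the members' medians were -0.10 and -0.24, and with subclusters of equal weight -0.23 in both classes. B cell and CD8 T and NK cell markers also moved with genotype: in Tfr cells Ighm was at 639 and 663 CPM in the WT runs and 1020 CPM in BKO, past the rule but not with the trend taken off, and the CD8 T and NK cell markers summed to 289, 270 and 49.0 CPM in Tfh and 111, 84.8 and 61.3 CPM in Tfr cells. Their part in the members' ratios was not tested.

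The software that counted the reads differs between the genotypes, and intron length moves with the ratio. WT was counted with cellranger 7.0.1, which by default includes reads in introns, and BKO with Cell Ranger 4, which by default does not. Whether the defaults were kept is unknown here. Genes with over 100 kb of introns had a median log2 ratio of -0.36 in both classes, and those under 3 kb of 0.17 in Tfh and 0.18 in Tfr cells. Of the long ones 8.07% were lower in BKO in Tfh and 7.83% in Tfr cells. Many sialyltransferases have long introns: 518 kb in St6galnac3, 200 kb in St3gal3, 135 kb in St8sia6, 134 kb in St8sia1 and 131 kb in St6gal1. Counting software and genotype cannot be told apart. The ratios are therefore given also after taking off the median ratio of genes of like intron length. With that, 1.2% of all genes were lower in Tfh and 0.703% in Tfr cells. The introns of St6galnac3 are longer than the 341 kb at the centre of the last group of genes in Tfh and the 339 kb in Tfr cells, so its value rests on the end of the trend.

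**Figure D4:**
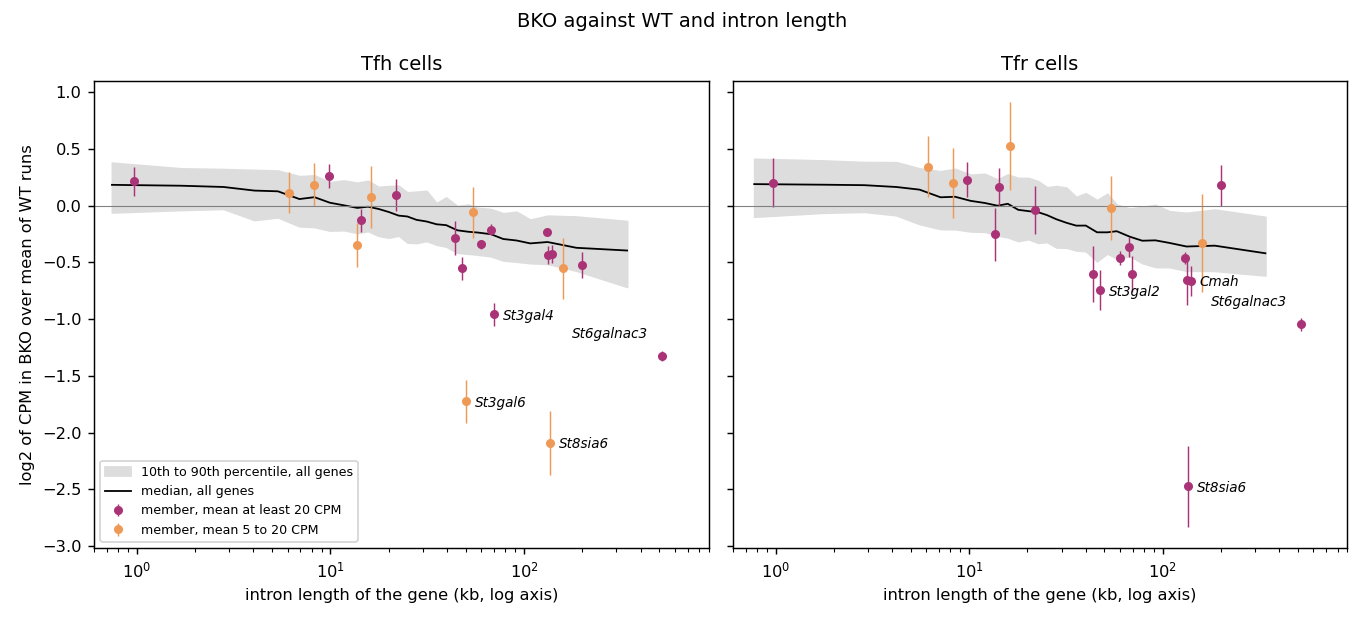
Log2 of the level in BKO over the mean of the WT runs against the gene's intron length on a log axis, in Tfh (left) and Tfr cells (right), for members with a mean of at least 5 CPM. The line and band are the median and the 10th to 90th percentiles of all genes in bins of intron length, and error bars are 95% intervals for counting error only. The all-gene median falls with intron length, and St8sia6, St3gal4 and St3gal2 lie below the band in both classes. St6galnac3, with longer introns than the band covers, lies lower than the band's end in both.

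St6galnac3 was lower in BKO in both classes by the values given above, 340, 348 and 137 CPM in Tfh and 520, 504 and 248 CPM in Tfr cells. The log2 ratio was -1.32 in Tfh and -1.04 in Tfr cells. With the intron trend taken off it was -0.93 and -0.62. BKO was under WT in 5 of 5 Tfh subclusters (-0.99 to -0.69) and in 5 of 5 Tfr subclusters (-1.02 to -0.35). Here and below, the subclusters share the same libraries and counting software, and their ratios keep the intron trend. Among members with a mean of 20 CPM or more in the class but not called there, St3gal1 was also lower in 5 of 5 subclusters of each class. St3gal2, St3gal3, St6gal1 and St8sia1 were so in Tfh cells, and St3gal4, St8sia4 and Gne in Tfr cells. Nans was lower in 0 of 5 Tfh subclusters and St3gal3 in 0 of 5 Tfr subclusters. No share over all genes is given beside these counts, so they say nothing particular to the members.

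St8sia6 had the largest ratios of the members with at least 5 CPM. Both of its BKO levels lie under its 5.34 CPM in BKO barcodes of 1 to 50 UMIs (9 UMIs, 95% interval 2.44 to 10.1 CPM). WT has no such barcodes to compare, and the part of free RNA in these levels was not tested. In Tfr cells it fell from 27.7 and 30.6 to 4.84 CPM (log2 ratio -2.47), on 230, 415 and 74 UMIs. In Tfh cells it was under the minimum, at 15.3, 13.9 and 3.04 CPM (-2.09). With the intron trend taken off the log2 ratios were -2.11 and -1.77. All 5 subclusters of each class were lower in BKO, by -3.05 to -1.70 in Tfr and -2.06 to -0.48 in Tfh cells. Its call in Tfr cells was lost where the mean over samples dropped under the minimum, with cells of over 4000 genes put back and with subclusters of equal weight. The log2 ratios there were -2.26 and -2.06.

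St3gal4 in Tfh cells had 54.1, 60.3 and 29.2 CPM, a log2 ratio of -0.96, and -0.70 with the intron trend taken off. It was lower in 5 of 5 Tfh subclusters, most in subcluster 4 (73.9, 71.9 and 26.4 CPM), and without subclusters 5 and 6 the ratio was -0.76. In subcluster 6 itself, where it is high, BKO had 151 CPM against 157 and 158. In Tfr cells St3gal4 had a log2 ratio of -0.60 and was not called.

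St3gal6 in Tfh cells was just under the minimum, with a mean of 19.4 CPM, and had a log2 ratio of -1.72. Without Tfh subclusters 5 and 6, which held fewer BKO cells, the ratio was -0.62, and with subclusters of equal weight -0.66. Tfh subclusters 0 to 4 gave -1.25 to -0.19.

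St3gal2 and Cmah were lower in BKO Tfr cells, with log2 ratios of -0.75 and -0.66. Cmah lost the call under 5 of 12 alternatives, and its ratio was -0.31 with the intron trend taken off and -0.33 with subclusters of equal weight. For St3gal2 these values were -0.51 and -0.56, both too small for a call. In Tfh cells St3gal2 was at -0.55 and, without subclusters 5 and 6, past the rule at -0.71.

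The remaining members above the minimum were not called. St3gal1 had log2 ratios of -0.21 in Tfh and -0.37 in Tfr cells, St6gal1 -0.23 and -0.46, St8sia4 -0.34 and -0.46, and St8sia1 -0.43 and -0.66. With the intron trend taken off these 4 lay between -0.11 and 0.09 in Tfh and between -0.30 and -0.10 in Tfr cells. St3gal3 was at -0.52 in Tfh and 0.18 in Tfr cells. Nans, with 9.80 kb of introns, was at 0.26 and 0.23, Neu1, with 0.968 kb, at 0.21 and 0.20 and Slc35a1 at 0.09 and -0.04. Cmas stood at -0.13 and 0.17, Gne at -0.29 and -0.60 and Neu3, tested in Tfr cells, at -0.25. Another scaling, by trimmed mean of M values (TMM), moved all ratios up by 0.159 in Tfh and 0.114 in Tfr cells. Cmas in Tfh and Slc35a1 in Tfr cells thereby changed sign, to 0.03 and 0.08. With TMM, 10 of 14 members in Tfh and 11 of 16 in Tfr cells lay below 0, against 41.1% and 47.0% of all genes. Without it 11 and 12 did, against 63.3% and 61.6% of all genes.

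Related genes, from lists chosen with earlier results known, were counted in the same fits. Of 6 other genes that handle sialic acid, 5 were tested between the classes. By edgeR 1 was higher in Tfr and 0 lower, against 11.6% and 9.87% of all genes. The one called was Renbp, which interconverts GlcNAc and ManNAc, at 2.83, 2.47 and 3.55 CPM in Tfh and 6.02, 4.87 and 9.17 CPM in Tfr cells (log2 change 1.22, SE 0.19, edgeR adjusted p = 0.0025), which DESeq2 called too (adjusted p = 0.034). Ctsa, the protective partner of Neu1, and Casd1, the acetyltransferase of sialic acid, had the highest means of that list and did not pass. Ctsa had 43.9, 47.7 and 51.9 CPM in Tfh and 48.9, 47.4 and 54.6 CPM in Tfr cells, and Casd1 lay between 35.3 and 40.9 CPM in all (log2 changes 0.06 and -0.02).

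Of 12 enzymes that build the acceptor glycans 11 were tested, with 1 higher and 4 lower in Tfr cells by edgeR, against 11.6% and 9.87% of all genes. DESeq2 called 1 higher and 1 lower, Mgat5 and Ugcg, against 4.89% and 3.72% of all genes. It lost B4galnt1 (adjusted p = 0.065), B4galt5 (0.36) and Gcnt1 (0.33). Mgat5, which branches N-glycans, rose from 260, 257 and 150 CPM to 378, 370 and 203 CPM (log2 change 0.48, SE 0.06, edgeR adjusted p = 4.8e-04). Lower were Ugcg (-0.55), the first step of glucosylceramide-based lipids, B4galnt1 (-0.33), the GM2 and GD2 synthase, B4galt5 (-0.39), a lactosylceramide synthase, and Gcnt1 (-0.81), the core 2 branching enzyme. These values are log2 changes with edgeR adjusted p of 3.8e-04, 0.0093, 0.017 and 0.019. B4galnt1 had 127, 132 and 129 CPM in Tfh and 113, 113 and 95.3 CPM in Tfr cells, and Ugcg 61.7, 65.3 and 54.6 CPM in Tfh and 43.7, 44.1 and 36.9 CPM in Tfr cells. B4galt5 had 32.7, 31.2 and 19.7 CPM in Tfh and 22.9, 21.7 and 16.4 CPM in Tfr cells, and Gcnt1 6.03, 5.72 and 6.27 CPM in Tfh and 3.37, 2.73 and 3.93 CPM in Tfr cells. Each of the 4 was lower in Tfr in every sample.

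Among 9 Siglec family genes 1 passed the filter, Cd22, with 18.3, 17.5 and 21.7 CPM in Tfh and 11.1, 11.96 and 15.4 CPM in Tfr cells (log2 change -0.54, SE 0.10, edgeR adjusted p = 0.0046). DESeq2 did not call it (adjusted p = 0.15). Of 6 carriers of sialylated glycans, edgeR called 1 higher and 4 lower in Tfr cells, against 11.6% and 9.87% of all genes. DESeq2 called 0 higher (also 0 at an unadjusted p under 0.05) and 1 lower, Cd44, against 4.89% and 3.72% of all genes. It lost Selplg (adjusted p = 0.36), Ptprc (0.090), Spn (0.56) and Cd24a (0.68). Selplg, the P-selectin ligand PSGL-1, rose (log2 change 0.66, edgeR adjusted p = 0.0076), with 80.4, 86.1 and 57.5 CPM in Tfh and 103, 104 and 114 CPM in Tfr cells. Cd44 fell from 265, 272 and 241 CPM to 190, 191 and 120 CPM (log2 change -0.75, edgeR adjusted p = 0.0013). Ptprc, or CD45, a carrier read by CD22 and galectins, fell from 2417, 2451 and 2179 CPM to 2141, 2150 and 1868 CPM (-0.20, edgeR adjusted p = 0.0495). Spn, or CD43, fell from 147, 153 and 127 CPM to 133, 132 and 114 CPM (-0.17, edgeR adjusted p = 0.048). Cd24a fell by 1.75 in log2 from 0.907, 1.00 and 0.641 CPM to 0.361, 0.0738 and 0.262 CPM (edgeR adjusted p = 0.046). It rested on few UMIs: 17, 30 and 28 in Tfh and 3, 1 and 4 in Tfr cells. Cd52, of the highest mean, had 3293, 3128 and 2733 CPM in Tfh and 3514, 3445 and 2906 CPM in Tfr cells and did not pass.

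Between BKO and WT, the related lists gave 0 genes higher, against 0.381% of all genes in Tfh and 0.872% in Tfr cells. The shares of all genes lower in BKO were 2.38% and 2.26%. Mgat5 was lower in both classes (log2 ratios -0.78 and -0.88), B4galt5 in Tfh cells (-0.68) and Cd44 in Tfr cells (-0.67). With the intron trend taken off none of these passed the rule.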

How the data were processed

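Per the file headers, the values the authors deposited are raw counts of UMIs, made with cellranger 7.0.1 for both WT samples and Cell Ranger 4 for BKO, on mm10 per the submitters' processing notes. The authors' deposited tables give class and cluster number of each cell; they hold cells under 4000 genes and 10% mitochondrial UMIs, by their values. In WT run 2 the matrix has 1.52 times the UMIs of the table. No source used here states how doublets were treated, and none were called.

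Counts were summed by sample, class and subcluster (Python 3.11.15) and scaled to CPM. Tfr was tested against Tfh with edgeR 4.0.16 (R 4.3.3), the WT runs entering as their rounded mean, with a check by DESeq2 1.42.0. On simulated data of 13667 genes edgeR recovered 85% of 2-fold and 100% of 4-fold changes and called 6 unchanged genes. Intervals and limits (3 counts, 95%) cover counting error only. Gene spans and intron lengths came from GENCODE, which holds 32235 of 32285 features (99.8%).

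The members' rule uses no measured value, but members and lists were proposed with earlier results of these data known. Named were all members with their UMIs, with values per sample from a mean of 20 CPM or where called, and of related lists the genes called and the 2 of highest mean. Alternatives were scaling, minimum, pseudocount, intron trend, subclusters, depth, cells, the block and leaving out a sample.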

Additional observations from a re-analysis of the deposited data

Results flagged for a closer look

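Some members had opposite directions between the classes in WT and BKO, as log2 of the Tfr over the Tfh level, and the difference between genotypes was not tested. St3gal3 was lower in Tfr cells of the WT runs (-0.37 and -0.35) and higher in BKO (0.34). Cmas was likewise lower in WT (-0.13 and -0.15) and higher in BKO (0.15). St6gal1 was higher in Tfr cells of WT (0.19 and 0.19) and lower in BKO (-0.041). Gne was at 0.15 and 0.06 in WT and -0.21 in BKO, and Cmah at 0.10 and 0.01 in WT and -0.18 in BKO. The WT runs hold the same cells, so each direction rests on 1 library per genotype.

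In BKO barcodes of 1 to 50 UMIs, which enter no comparison, St6gal2 was at 3.56 CPM and Nans at 68.2 CPM, both above their levels in the annotated cells of every sample.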

How the results depend on the processing

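No paired analysis was possible between BKO and WT because they share 1 replicate number and hold 1 library each; within batch 1 the values are those without WT run 2. Between Tfr and Tfh the library is the block; without the block, edgeR called 0 members higher (2 at an unadjusted p under 0.05) and 1 lower (St8sia1, adjusted p = 0.026), and over all genes 176 and 164 against 1613 and 1367. DESeq2 called 3 members lower against 6, and 682 and 518 genes. Leaving out a WT run gave 4 members higher and 5 lower. No share over all genes is given for that setting, so the count says nothing particular to the members. In BKO Tfh cells 2 members were lower, but 4 with a minimum mean of 5 CPM (with St3gal6 and St8sia6) and 5 with none, and 2 without either WT run. In Tfr cells 4 were lower, but 2 with the intron trend taken off, 1 with subclusters of equal weight, and 5 to 6 without a WT run. Without run 2, St8sia1 (-0.74) and Gne (-0.65) were added, and without run 1 St3gal4 (-0.62). The members lower without a WT run have no share over all genes beside them, so these counts say nothing particular to the members. Over all genes, 156 were lower in BKO Tfh cells, against 81 with TMM, 85 with DESeq2's size factors, 381 and 963 with the lower minimums, 79 with the trend taken off and 42 with equal weight; in Tfr cells these counts were 148, 70, 72, 302, 853, 46 and 47. Higher in BKO were 25 genes in Tfh cells (61, 56, 62 and 214 with TMM, size factors and the lower minimums, 15 with equal weight, 54 without WT run 2) and 57 in Tfr cells (101, 100, 127, 479, 26 and 90). The cause was not tested. Nans was called higher in Tfr cells with cells thinned to 2500 UMIs (edgeR adjusted p = 0.048). Under the alternatives run, no called member reversed direction. With 1 library per genotype, depth limits only the counting error.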

Other observations

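The BKO matrix also holds 907649 barcodes of 1 to 50 UMIs, with 1686503 UMIs together, while the WT matrices hold called cells. In these barcodes St6gal1 was at 312 CPM, St3gal1 at 144 CPM, St8sia4 at 143 CPM, St6galnac3 at 136 CPM and St8sia1 at 52.2 CPM. St3gal6 had 6.52 CPM there and St8sia6 5.34 CPM, the latter above its 3.04 CPM in BKO Tfh and 4.84 CPM in BKO Tfr cells. St8sia1, St3gal1 and St3gal6 were there above their BKO Tfr levels (18.7, 127 and 1.70 CPM) and under their BKO Tfh levels.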
